A study of Mus musculus with 4 samples.

Results

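The nuclear genes for the subunits of oxidative phosphorylation were followed in testis RNA of mice mutant for Lrrc8a (MUT, 2 libraries) and of wild-type mice (WT, 2 libraries), all of strain FVB. They were taken from the deposited CPM table as the rows whose symbol begins with Nduf and a subunit letter and digit, with Uqcr, with Cox and a digit from 4 to 8, or with Atp5, together with Sdha, Sdhb, Sdhc, Sdhd and the cytochrome c genes Cycs and Cyct. This gave 86 of 24420 symbols. Of these, 84 encode subunits or cytochrome c. The other 2 are Atp5s and Atp5sl, which carry an ATP synthase name but are not structural subunits and are counted apart where stated. The Lrrc8a protein is the obligatory part of a channel that lets chloride out of swollen cells. The kind of mutation and the age of the mice are not given in the sources used here. Nor do they say whether each library is a separate animal, so that every p-value reflects only how far the 4 libraries vary, and part of that may be technical. The labels give germ cells as the cell type and testis as the source, and name no sorting step. The RNA was not of germ cells alone. The 6 Leydig cell markers given below summed to 1057 and 1096 CPM in MUT and to 915 and 896 CPM in WT.

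Oxidative phosphorylation runs in the inner mitochondrial membrane. Complexes I and II pass electrons from NADH and succinate to ubiquinone, complex III passes them to cytochrome c, complex IV hands them to oxygen, and complex V uses the resulting proton gradient to make ATP. Several complex IV subunits and cytochrome c exist in more than one gene copy with tissue-restricted use: Cox6b2, Cox7b2, Cox8c and Cyct are the forms known from male germ cells, while Cox6b1, Cox7b, Cox8a and Cycs are used generally.

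The libraries held 40426400 to 48409785 reads in MUT and 50162558 to 68192776 in WT, recovered from the CPM steps. A floor of 3 reads corresponds to 0.0445 to 0.0733 CPM and covers counting error only. Lrrc8a was at 13.5 and 15.9 CPM in MUT, against 18.2 and 17.1 CPM in WT, a log2 fold change of -0.26 with an SE of 0.0998 (limma adjusted p = 0.218), and the part of the gene that the mutation affects is not stated. WT 1 stood apart from the other libraries in base composition: across tested genes its deviation from the mean of all libraries had a Spearman rho of 0.406 with GC content and -0.261 with transcript length, against 0.201 or less in size for the other 3 libraries. The tested members have a median transcript length of 1005 nt, against 3202 nt for all tested genes, and a median GC content of 50.2%, against 49.6%.

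Only 1 member passed the test. Of 83 tested members, 0 were called higher and 1 lower in MUT at an adjusted p under 0.05 (limma, Benjamini-Hochberg over all 15364 tested genes), where 0.482% of all tested genes were called higher and 0.267% lower (0.749% in either direction). The called member was Cox7b2, a testis form of a small complex IV subunit. The median log2 fold change over the members was -0.02, beside 0.00 for all tested genes, and 74 of the 83 lay within 0.2 of 0. Their summed level was 6583 and 6589.6 CPM in MUT, against 6929 and 6599 CPM in WT. The MUT sums lay below both WT sums, but the gap to WT 2 was smaller than the gap between WT 1 and WT 2. The same order held for the sum over all tested genes. It was 991150 and 986372 CPM in MUT, against 1010070 and 1007180 CPM in WT, so the order of the member sums is not particular to the members.

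Both MUT libraries lay above both WT libraries for 13 members, where 23.0% of all tested genes did so, and below them for 23 members, where 22.6% did. This is 43.4% of the members in either direction, against 45.6% of all tested genes. An unadjusted limma p under 0.05 was reached by 15 members (18.1%), against 14.7% of all tested genes. Signs of the small differences depended on which WT library was left out. Without WT 1, 2 members were called higher and 3 lower, where 133 and 177 of all tested genes were, and 48 members had a log2 fold change above 0, against 33 with all libraries, and the median was 0.02. Without WT 2, 0 members were called higher and 0 lower, 25 members lay above 0 and the median was -0.0481. The median deviation of the members from their mean over libraries was -0.01 in MUT 1 and -0.01 in MUT 2, against 0.04 in WT 1 and -0.04 in WT 2, so WT 1 and WT 2 lay on opposite sides of the MUT libraries.

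**Figure D1:**
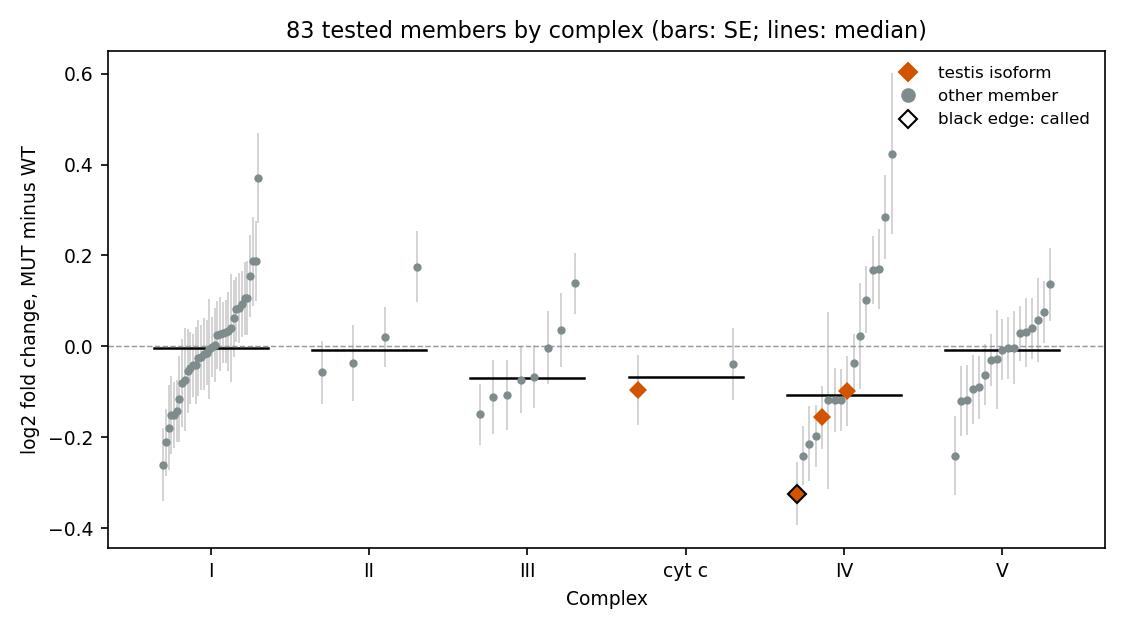
Log2 fold change (MUT minus WT, log2(CPM + 0.5) scale) of each of the 83 tested members, grouped by complex, with bars of 1 SE and the median of each complex as a line. Diamonds are testis isoforms, and the black edge marks Cox7b2, the called member at -0.32; the complex medians run from -0.11 (complex IV) to 0.00 (complex I).

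Testis isoforms and their general partners. The testis forms of complex IV subunits were 9.02 to 34.0 times as abundant as their general partners in CPM per kilobase of transcript, over all 4 libraries. In plain CPM they were 8.54 to 20.7 times as abundant. Per kilobase, Cyct was 6.20 to 6.59 times as abundant as Cycs, but in plain CPM only 1.30 to 1.38 times. The larger figure rests on a transcript of 3123 nt for Cycs, against 655 nt for Cyct. Which Cycs transcript is used in testis was not examined. For Cox7b2 (ENSMUSG00000049387, chr5:71442824-71548205 on the minus strand of GRCm38), the values were 81.7 and 81.8 CPM in MUT, against 99.0 and 106 CPM in WT. The groups did not overlap, and the MUT libraries were nearly equal. The means were 81.8 ± 0.0768 CPM in MUT and 103 ± 5.06 CPM in WT (SD, n = 2 each). An SD of 2 libraries is a poor measure of spread, so the small MUT value is no sign of precision. The log2 fold change was -0.32 (SE 0.0692, 95% interval -0.47 to -0.18, limma adjusted p = 0.0324). Its partner Cox7b was at 5.86 and 6.13 CPM in MUT, against 6.02 and 5.77 CPM in WT, with overlapping groups (log2 fold change of 0.02 with SE 0.118, limma adjusted p = 0.953). The call of Cox7b2 was kept in 9 of 16 alternatives. It was lost without MUT 1 (limma adjusted p = 0.143), MUT 2 (0.0947) or WT 2 (0.0919). It was also lost without a filter on low values (0.154), after quantile normalization (0.0723), without the variance trend (0.237) and with the replicate block (0.0717), and its log2 fold change ran from -0.37 to -0.27 over all 16. It was kept, at an adjusted p of 0.0103, without WT 1, and at 0.0251 once trends on GC content and length had been removed from each library.

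Cox6b2, the testis form of the subunit that faces the intermembrane space where cytochrome c docks, was at 202 and 216 CPM in MUT, against 249 and 218 CPM in WT. The groups did not overlap, but MUT 2 and WT 2 nearly met. Its log2 fold change of -0.16 (SE 0.0703) was not called (limma adjusted p = 0.306). Cox6b1 was at 23.7 and 24.0 CPM in MUT, against 22.2 and 20.1 CPM in WT, so that the MUT libraries were the higher ones (log2 fold change of 0.17 with SE 0.0881, limma adjusted p = 0.382).

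Cox8c, the testis form of the smallest complex IV subunit, was at 323 and 287 CPM in MUT, against 354 and 299 CPM in WT. The groups overlapped (log2 fold change of -0.10 with SE 0.0771, limma adjusted p = 0.590). Its general partner Cox8a was at 19.5 and 21.6 CPM in MUT, against 17.1 and 16.4 CPM in WT. Both MUT libraries were above both WT libraries, and the log2 fold change of 0.29 (SE 0.0924) was not called (limma adjusted p = 0.157).

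Cyct, the testis cytochrome c, was at 51.9 and 47.5 CPM in MUT, against 51.4 and 54.8 CPM in WT. Cycs, the general cytochrome c, was at 39.0 and 36.5 CPM in MUT, against 37.9 and 39.6 CPM in WT. Both genes had overlapping groups, with log2 fold changes of -0.10 (SE 0.0774) for Cyct and -0.04 (SE 0.079) for Cycs.

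**Figure D2:**
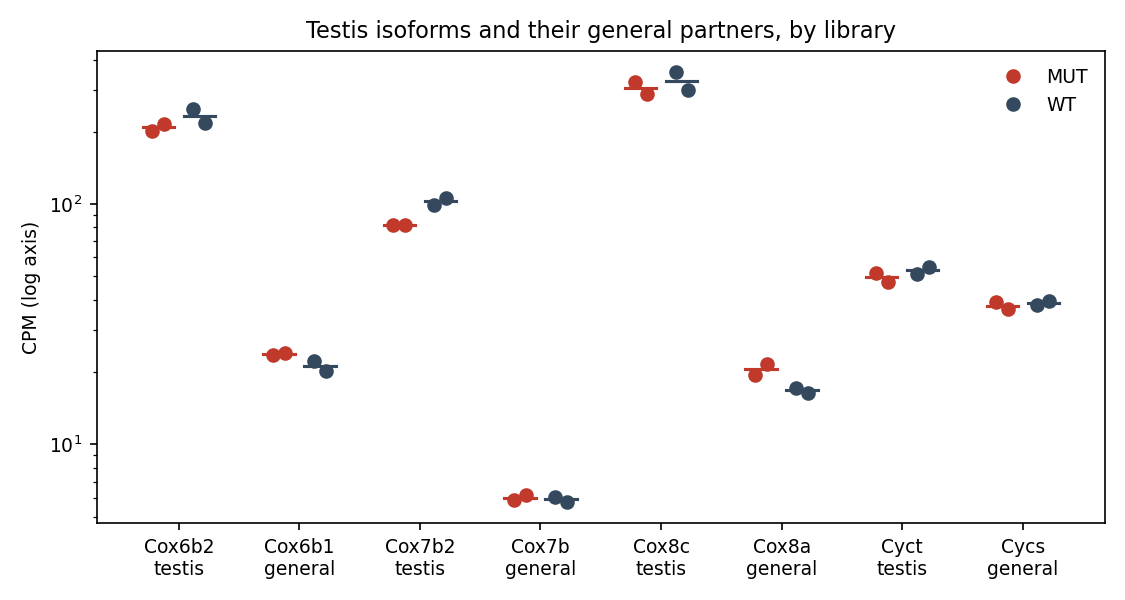
CPM on a log axis of the 4 testis isoforms and their general partners, with MUT left of WT, a point for each library and a line at the mean of 2 libraries. Cox7b2 shows MUT points at 81.7 and 81.8 CPM below WT points at 99.0 and 106 CPM, while Cox8a and Cox6b1 have their MUT points above their WT points.

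The ratio within a library removes its scaling. The log2 ratio of Cox6b2 to Cox6b1 was 3.07 and 3.15 in MUT, against 3.46 and 3.41 in WT. For Cox7b2 to Cox7b it was 3.69 and 3.63 in MUT, against 3.93 and 4.09 in WT. For Cox8c to Cox8a it was 4.01 and 3.70 in MUT, against 4.33 and 4.14 in WT. In all 3 pairs, as in Cyct/Cycs below, both MUT libraries lay below both WT libraries. Of all tested genes taken singly, 22.6% did so, and no such share was computed for ratios of genes.

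The log2 ratio of Cyct to Cycs was 0.41 and 0.37 in MUT, against 0.43 and 0.46 in WT, a gap much smaller than in the complex IV pairs. The differences, MUT minus WT, were -0.33 for Cox6b2/Cox6b1, -0.35 for Cox7b2/Cox7b, -0.38 for Cox8c/Cox8a and -0.06 for Cyct/Cycs. For each of the 4 pairs the two-sided exact permutation p was 0.333, the smallest that 2 against 2 allows, also after adjustment over the pairs. The ratios are therefore described and not called. Every one of 9 alternatives kept the 4 differences below 0. Leaving out a library could not change a sign, because MUT and WT did not overlap in any pair. Another scaling factor or pseudocount hardly moves a ratio within a library, so these alternatives are no test of the sign. Quantile normalization and removal of GC content and length trends can move a ratio. After that removal the differences were -0.29, -0.34, -0.46 and -0.05 in the same order. The exact permutation p of Cyct/Cycs was then 0.667, so its groups no longer stood apart, and that of the other pairs stayed at 0.333. Without WT 1 the differences were -0.30, -0.43, -0.29 and -0.07 in the same order. How a difference divides between the members of a pair depended on WT 1. Without it, the log2 fold change was 0.02 for Cox8c and 0.32 for Cox8a, and -0.06 for Cox6b2 and 0.24 for Cox6b1.

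**Figure D3:**
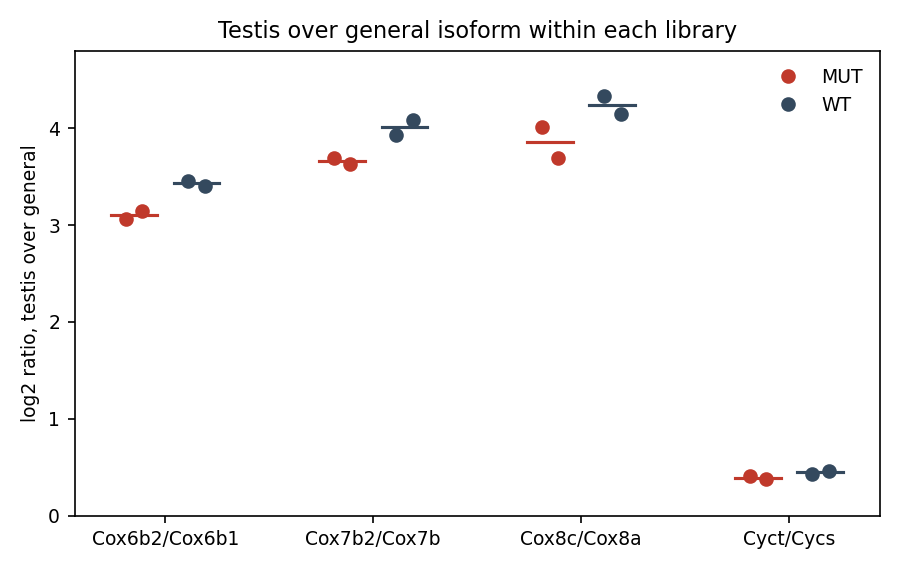
Log2 ratio of testis isoform over general isoform, from log2(CPM + 0.5) within each library, with MUT left of WT and a line at the mean of 2 libraries. The 3 complex IV pairs have MUT points below WT points by 0.33 to 0.38 on average, and Cyct/Cycs by 0.06.

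Levels between genes were compared per kilobase of the longest APPRIS principal transcript in GENCODE vM21. On that scale Cox8c ranked first among the 86 members, at 665 CPM per kb in MUT and 713 CPM per kb in WT (means of 2 libraries), and Cox6b2 second, at 357 and 399 CPM per kb in MUT and WT. Atp5b, the catalytic beta subunit of ATP synthase, followed at 318 CPM per kb in MUT and 325 CPM per kb in WT. Cox7b2 was at 151 CPM per kb in MUT and 189 CPM per kb in WT, and Cyct at 75.9 and 81.1 CPM per kb in the same order. The general partners were far lower on this scale. Cox6b1 was at 38.6 and 34.2 and Cox8a at 37.4 and 30.5 CPM per kb in MUT and WT. Cycs was at 12.1 and 12.4 and Cox7b at 5.99 and 5.89 CPM per kb in the same order. Cox7b has 2 and Cycs 3 annotated pseudogenes with at least 95% identity over at least 100 nt. Counting genes of any type, Cycs has 10 such matches. The levels of Cox7b and Cycs may be understated if reads that match several places were dropped. None of the 4 testis isoforms has a match of this kind.

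Marker levels of other cell types are given beside these ratios. The 6 Leydig markers summed to 1057 and 1096 CPM in MUT, against 915 and 896 CPM in WT, with 1 called higher (Cyp17a1, at 657 and 680 CPM in MUT, against 573 and 533 CPM in WT, and thus most of the sum) and Insl3 at a log2 fold change of -0.28 with overlapping groups. The 8 Sertoli markers summed to 882 and 916 CPM in MUT, against 857 and 812 CPM in WT, with 0 called. Most of this sum is Clu, at 727 and 766 CPM in MUT, against 718 and 669.9 CPM in WT, and Amh had a log2 fold change of -0.38 with overlapping groups. The 6 spermatogonial markers summed to 64.1 and 64.9 CPM in MUT, against 51.1 and 56.7 CPM in WT, with Kit called higher. The 8 elongating spermatid markers summed to 15792 and 15164 CPM in MUT, against 17033 and 15260 CPM in WT, with 0 called. Both MUT libraries lay above both WT libraries for 4 of 6 Leydig, 5 of 8 Sertoli and 5 of 6 spermatogonial markers, and below them for 0. Of all tested genes 23.0% lay above and 22.6% below. For the elongating spermatid markers 0 lay above, 2 below and 6 overlapped, and for the 5 peritubular myoid markers 0 lay above, 3 below and 2 overlapped. None of these markers was at 0. The part of cell composition in the ratios was not tested, and in whole tissue fewer cells of a type and less RNA per cell cannot be told apart. Of the remaining lists, the 6 spermatocyte markers summed to 1089 and 1073 CPM in MUT and 1028 and 1102 CPM in WT, and the 6 round spermatid markers to 899 and 923 CPM in MUT and 935 and 907 CPM in WT, both with overlapping groups. Peritubular myoid markers (5) summed to 94.98 and 104 CPM in MUT and 117 and 110.2 CPM in WT, macrophage markers (5) to 64.6 and 63.7 CPM in MUT and 56.6 and 58.4 CPM in WT, and endothelial markers (4) to 19.0 and 22.0 CPM in MUT and 19.7 and 20.3 CPM in WT, with 0 called in each. Brown fat markers (3) summed to 15.2 and 14.8 CPM in MUT and 13.6 and 13.1 CPM in WT, with Ucp1 listed at 0 in MUT 2, and erythroid markers (3) to 19.9 and 21.8 CPM in MUT and 24.1 and 20.3 CPM in WT, with Hbb-b1 and Hba-a1 listed at 0 in all 4 libraries.

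The sequences before the transcription start of the isoform pairs are shown because these genes carry the contrast between testis and general forms. They are from RefSeq (GRCm38.p6), the 200 bases before the annotated start, 5′ to 3′ on the gene's strand. Capitals mark letters of 4 motifs found on either strand: GCGCA and GCGC with any base between them (bound by NRF1, a regulator of respiratory chain genes), TGACGTCA (the cAMP response element), CCGGAAG (the core of ETS factors such as GABPA) and CCAAT (the CCAAT box). The matches shown do not overlap each other. The regions are chr7:4753095-4753294 for Cox6b2, chr7:30626115-30626314 for Cox6b1, chr5:71548206-71548405 for Cox7b2, chr19:7217617-7217816 for Cox8a, chr2:76360454-76360653 for Cyct and chr6:50566570-50566769 for Cycs, all on the minus strand, and chrX:106015500-106015699 on the plus strand for Cox7b. Cox8c is not shown.
Cox6b2: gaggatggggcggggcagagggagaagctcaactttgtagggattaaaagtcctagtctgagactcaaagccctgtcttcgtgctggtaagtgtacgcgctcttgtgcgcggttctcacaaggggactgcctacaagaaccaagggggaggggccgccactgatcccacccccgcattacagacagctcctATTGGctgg
Cox6b1: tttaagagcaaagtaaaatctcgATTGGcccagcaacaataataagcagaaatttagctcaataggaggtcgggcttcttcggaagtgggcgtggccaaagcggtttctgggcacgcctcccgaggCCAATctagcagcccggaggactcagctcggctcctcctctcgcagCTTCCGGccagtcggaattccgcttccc
Cox7b2: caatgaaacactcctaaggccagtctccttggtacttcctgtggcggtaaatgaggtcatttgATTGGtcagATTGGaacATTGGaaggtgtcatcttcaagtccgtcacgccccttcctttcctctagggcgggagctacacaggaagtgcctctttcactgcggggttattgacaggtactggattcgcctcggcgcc
Cox7b: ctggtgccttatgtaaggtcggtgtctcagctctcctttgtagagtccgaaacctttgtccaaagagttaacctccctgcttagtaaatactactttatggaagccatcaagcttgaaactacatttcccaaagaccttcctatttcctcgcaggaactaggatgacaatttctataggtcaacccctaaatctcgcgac
Cox8a: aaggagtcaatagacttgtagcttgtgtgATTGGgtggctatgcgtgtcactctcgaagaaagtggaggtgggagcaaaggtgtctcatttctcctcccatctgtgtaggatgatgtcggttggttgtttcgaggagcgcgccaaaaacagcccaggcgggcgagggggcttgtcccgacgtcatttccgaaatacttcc
Cyct: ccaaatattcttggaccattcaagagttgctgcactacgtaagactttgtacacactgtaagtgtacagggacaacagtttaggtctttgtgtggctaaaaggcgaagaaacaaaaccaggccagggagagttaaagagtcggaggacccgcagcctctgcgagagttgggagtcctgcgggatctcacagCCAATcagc
Cycs: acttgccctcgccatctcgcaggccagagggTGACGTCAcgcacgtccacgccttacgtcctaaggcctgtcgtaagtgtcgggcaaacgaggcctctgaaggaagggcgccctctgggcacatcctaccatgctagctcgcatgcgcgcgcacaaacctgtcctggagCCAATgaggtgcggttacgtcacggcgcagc

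In these windows Cox6b2 and Cyct each held a CCAAT box that begins 9 bases before the start, Cox7b2 held 3 further upstream, and none of the testis isoforms shown had a match to the other 3 motifs. Cycs held a cAMP response element and a CCAAT box, Cox6b1 an ETS core and 2 CCAAT boxes, Cox8a a CCAAT box, and Cox7b none of the 4 motifs. The wider windows counted below, from 250 bases before to 50 after the start, add an ETS core for Cox8a and a CCAAT box for Cox7b. What a gene holds thus depends on the window. For comparison, Cox6a1 (chr5:115348959-115349158, minus strand), a general complex IV gene, and Sdhd (chr9:50603850-50604049, minus strand), a membrane anchor of complex II, are given as members with a match to the NRF1 motif and the ETS core.
Cox6a1: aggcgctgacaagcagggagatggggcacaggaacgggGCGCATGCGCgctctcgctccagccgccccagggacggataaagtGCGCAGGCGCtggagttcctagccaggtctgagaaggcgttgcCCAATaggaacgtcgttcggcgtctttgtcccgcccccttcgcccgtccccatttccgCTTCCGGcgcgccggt
Sdhd: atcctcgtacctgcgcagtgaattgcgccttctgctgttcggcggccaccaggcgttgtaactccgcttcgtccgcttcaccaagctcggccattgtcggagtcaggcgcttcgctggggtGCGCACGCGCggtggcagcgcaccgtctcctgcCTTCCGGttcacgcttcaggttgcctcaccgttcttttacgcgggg

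In windows from 250 bases before to 50 after the start, the NRF1 motif was in 18 of 73 promoters of members (24.7%; 68 members had a promoter sequence) and in 4.6% of all 32851 promoters. The ETS core was in 16 of the 73 (21.9%), against 8.86% of all promoters, the cAMP response element in 5 (6.85%), against 1.79%, and the CCAAT box in 32 (43.8%), against 37.4%. These are letter matches, and they carry no information on binding in these samples.

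Complex IV as a whole. The counts and sums of the complex include the testis forms Cox6b2, Cox7b2 and Cox8c. Of 18 complex IV symbols 16 were tested, with 0 called higher and 1 (Cox7b2) lower. There were 6 log2 fold changes above 0 and 10 below, with a median of -0.11. The summed level of the complex was 1526 and 1504 CPM in MUT, against 1686 and 1561 CPM in WT. Both MUT sums were thus below both WT sums, as were the MUT sums over all tested genes. Without WT 1 the 16 split into 8 above and 8 below 0, with a median of -0.02, and without WT 2 into 6 and 10, with a median of -0.11. Groups did not overlap for 11 of the 16 (68.8%; 4 with MUT above WT and 7 below), where 45.6% of all tested genes did so, and 8 (50%) had an unadjusted limma p under 0.05, where 14.7% of all tested genes did. The part of cell composition, for which the marker sums are given above, was not tested here either. Besides the genes described here, Cox5b lay above WT at 90.7 and 97.9 CPM in MUT, against 89.2 and 78.7 CPM in WT (log2 fold change of 0.17). Cox6c lay below it at 80.7 and 76.5 CPM in MUT, against 90.4 and 90.0 CPM in WT (-0.20), as did Cox7c at 60.1 and 50.7 CPM in MUT, against 63.5 and 64.8 CPM in WT (-0.21), and Cox5a. These structural subunits have no call either, and were named after their values were seen.

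Cox7a2, the general form of a small complex IV subunit, was at 129.2 and 129.1 CPM in MUT, against 149.97 and 155 CPM in WT. The groups were well apart, yet the log2 fold change of -0.24 (SE 0.0645) missed the threshold with limma (adjusted p = 0.0871) and passed it with DESeq2 on recovered reads (adjusted p = 0.0462), the 1 call among its 16 alternatives; it was also called with the crossed replicate pairing that was added later (limma adjusted p = 0.0488). Cox7a1, its heart and skeletal muscle form, was near the filter at 1.497 and 1.54 CPM in MUT, against 0.875 and 1.15 CPM in WT (log2 fold change of 0.42 with SE 0.177, limma adjusted p = 0.271).

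Cox7a2l, a relative that takes part in joining complexes III and IV, was at 82.3 and 84.6 CPM in MUT, against 92.3 and 88.9 CPM in WT, without overlap (log2 fold change of -0.12 with SE 0.0685, limma adjusted p = 0.442). Cox4i1, the general form of the largest nuclear-encoded subunit, was at 191 and 186 CPM in MUT, against 199 and 188 CPM in WT, with overlapping groups (log2 fold change -0.04). Cox4i2, the form known from lung and low oxygen, was below the filter and not tested. It had 11 and 6 reads in MUT (0.226 and 0.147 CPM), against 24 and 19 reads in WT (0.356 and 0.382 CPM), all above the floor of 3 reads.

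Cox6a1, the general form of its subunit, was at 110.03 and 122 CPM in MUT, against 113 and 103 CPM in WT, with overlapping groups (log2 fold change 0.10). Cox6a2, its heart and muscle form, was at 1.54 and 0.953 CPM in MUT, against 1.17 and 1.59 CPM in WT, also overlapping (log2 fold change -0.12). Cox8b, the heart and muscle form beside Cox8a and Cox8c, is listed at 0 in all 4 libraries. The muscle markers were scarce too: the 4 listed summed to 3.79 and 3.69 CPM in MUT and 3.01 and 2.81 CPM in WT, with Tnnt3 listed at 0 in MUT 2. The low levels of Cox6a2, Cox7a1 and Cox4i2 leave little precision for any difference between genotypes, and the expression of Cox8b cannot be judged from a 0 in this table.

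Complex I. Of 37 symbols 36 were tested and none was called (4, or 11.1%, had an unadjusted limma p under 0.05, where 14.7% of all tested genes did), with 17 log2 fold changes above 0, 19 below and a median of 0.00. Without WT 1, 25 were above 0 and the median was 0.08; without WT 2, 12 were and the median was -0.04. The 29 tested accessory members ranged from -0.26 to 0.37. Summed levels were 2042 and 2060.04 CPM in MUT, against 2106 and 2014 CPM in WT, which overlap. Both MUT libraries were above both WT libraries for Ndufa3, Ndufa10, Ndufb6, Ndufb7 and Ndufv3, and below them for Ndufb2, Ndufb3, Ndufb5, Ndufc1, Ndufs3, Ndufs4 and Ndufs7. The remaining 24 tested members overlapped, so that 33.3% did not, where 45.6% of all tested genes did not. Ndufs3 and Ndufs7 are core subunits of the iron-sulfur arm. Ndufv2, an iron-sulfur core subunit and the most abundant member of the complex, was at 154 and 169.8 CPM in MUT, against 162.3 and 161.8 CPM in WT (log2 fold change of 0.00 with SE 0.067).

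The member furthest up was Ndufv3, an accessory subunit of the flavoprotein part, at 23.6 and 26.2 CPM in MUT, against 21.0 and 17.4 CPM in WT. The groups did not overlap and both differed within themselves (log2 fold change of 0.37 with SE 0.0994, limma adjusted p = 0.0871). It was called in 2 of 16 alternatives, without MUT 1 (adjusted p = 0.0406) and without WT 1 (0.0141), and also with the crossed replicate pairing (0.0369). The member furthest down was Ndufc1, an accessory subunit of the membrane arm, at 39.4 and 38.9 CPM in MUT, against 44.3 and 49.8 CPM in WT (log2 fold change of -0.26 with SE 0.0802, limma adjusted p = 0.135), called only without WT 1 (0.0416) among 16 alternatives. Without WT 1, Ndufb7 (log2 fold change 0.33, limma adjusted p = 0.0469) and Ndufb5 (-0.30, 0.0469), further accessory subunits of the membrane arm, were called too; with all 4 libraries Ndufb7 was at 0.19 (adjusted p = 0.333) and Ndufb5 at -0.21 (0.185). These 2 genes were chosen after their values were seen. Ndufb5 shares 616 exonic bases with Mrpl47 on the opposite strand, and their reads cannot be told apart if the counting ignored strand.

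Ndufa4, named for complex I but now assigned to complex IV, was at 10.8 and 13.1 CPM in MUT, against 12.7 and 11.3 CPM in WT. Its paralog Ndufa4l2, a target of the hypoxia factor HIF1, was at 31.2 and 34.5 CPM in MUT, against 37.5 and 31.0 CPM in WT. Both had overlapping groups, with log2 fold changes of -0.01 for Ndufa4 and -0.05 for Ndufa4l2. Ndufs5, an accessory subunit, is listed at 0 in all 4 libraries and has 1 near-identical annotated pseudogene; its expression cannot be judged from this table.

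**Figure D4:**
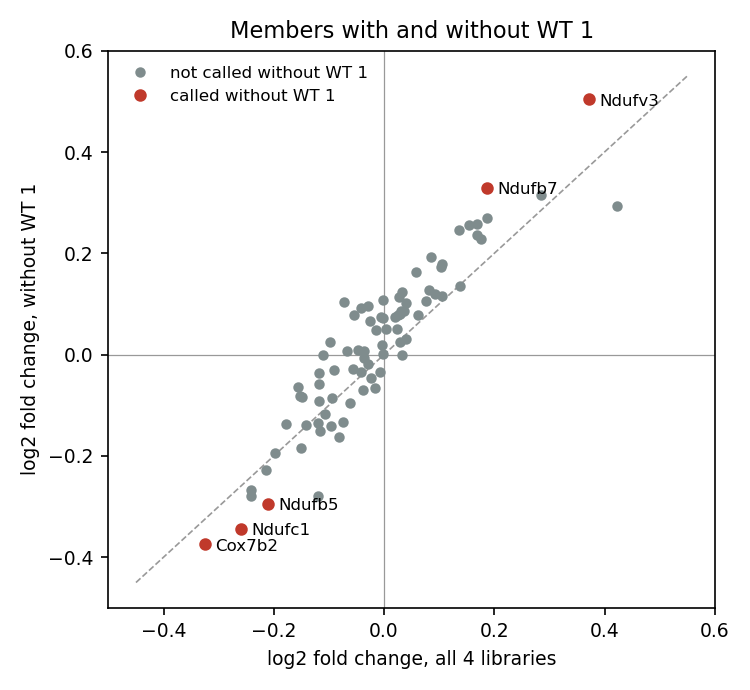
Log2 fold change (MUT minus WT) of the 83 tested members with all 4 libraries (x axis) and without WT 1 (y axis), with the line of equal values dashed. On the y axis 48 members lie above 0, against 33 on the x axis; 15 members change sign, and the 5 labelled members are called without WT 1.

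Complexes II and III. The 4 complex II genes had 0 calls (1 with an unadjusted limma p under 0.05) and a median of -0.01. Sdha, the flavoprotein that oxidises succinate, was at 152 and 157 CPM in MUT, against 158 and 147 CPM in WT, and Sdhb, the iron-sulfur subunit, at 79.8 and 82.95 CPM in MUT, against 86.4 and 82.93 CPM in WT. Both overlapped between genotypes. Sdhd was at 44.2 and 44.9 CPM in MUT, against 40.9 and 37.9 CPM in WT, without overlap (log2 fold change of 0.18 with SE 0.0777, limma adjusted p = 0.302).

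The 8 complex III genes had 0 calls (1 with an unadjusted limma p under 0.05), 2 log2 fold changes above 0 and 6 below, and a median of -0.07. Without WT 1 they split into 4 above and 4 below 0, with a median of 0.00. Its most abundant member Uqcrc1, a core protein of the complex, was at 269 and 293 CPM in MUT, against 325 and 297 CPM in WT (log2 fold change of -0.15 with SE 0.0667, limma adjusted p = 0.303). The other core protein, Uqcrc2, lay the opposite way, at 94.98 and 92.1 CPM in MUT, against 84.7 and 85.1 CPM in WT (0.14, SE 0.0678, limma adjusted p = 0.352). Uqcrb was the only other complex III gene without overlap, with MUT below WT. Neither core protein overlapped between genotypes, so the core pair differed in sign without either being called. Without WT 1 the log2 fold change was -0.08 for Uqcrc1 and 0.14 for Uqcrc2. In all, 37.5% of the complex III genes did not overlap, where 45.6% of all tested genes did not. Uqcrc2 shares 504 exonic bases with Pdzd9 on the opposite strand, and reads of the genes cannot be told apart if the counting ignored strand.

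Complex V. Of 17 Atp5 symbols, including Atp5s and Atp5sl, all were tested and none was called (1 had an unadjusted limma p under 0.05), with 6 log2 fold changes above 0, 11 below and a median of -0.01. Both MUT libraries were above both WT libraries for Atp5g1 and Atp5h, and below them for Atp5b, Atp5d, Atp5g3, Atp5j, Atp5j2, Atp5s and Atp5sl. These are 52.9% of the 17, where 45.6% of all tested genes did not overlap. Atp5b, the most abundant of all members, was at 606 and 613 CPM in MUT, against 626 and 618 CPM in WT. The groups did not overlap, but the log2 fold change was only -0.03 (SE 0.0575, limma adjusted p = 0.865). Atp5j2, a subunit of the membrane part, had the lowest log2 fold change among the subunits, with 43.1 and 44.7 CPM in MUT, against 49.7 and 45.7 CPM in WT (log2 fold change of -0.12 with SE 0.0775).

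Atp5g1, Atp5g2 and Atp5g3 encode the same mature c subunit of the proton-driven ring. Atp5g1 was at 55.2 and 54.6 CPM in MUT, against 53.9 and 46.2 CPM in WT (log2 fold change of 0.14 with SE 0.0812). Atp5g2 was at 30.6 and 27.4 CPM in MUT, against 29.98 and 25.8 CPM in WT (0.06, SE 0.092). Atp5g3 was at 39.3 and 38.9 CPM in MUT, against 42.0 and 41.5 CPM in WT (-0.09, SE 0.0761). Atp5g1 and Atp5g3 did not overlap between genotypes and had opposite signs, none of the 3 was called, and Atp5g1 and Atp5g2 have 1 and 2 near-identical pseudogenes. Counting genes of any type, Atp5g1 has 7 such matches. Of the symbols that are no subunits, Atp5s was at 21.3 and 22.9 CPM in MUT, against 25.5 and 26.9 CPM in WT (log2 fold change of -0.24 with SE 0.0867, limma adjusted p = 0.199), and Atp5sl at 40.7 and 43.5 CPM in MUT, against 45.3 and 46.2 CPM in WT (-0.12, SE 0.0767).

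Other genes of the pathway gave no call either. An unadjusted limma p under 0.05 was reached by 1 of 5 subunits outside the rule, 5 of 46 assembly factors, 2 of 13 biogenesis regulators, 1 of 13 tricarboxylic acid cycle genes and 2 of 9 carriers and related isozymes, where 14.7% of all tested genes reached it. The 5 subunits or regulators under other names (Cyc1, Ndufab1, Usmg5, 2010107E04Rik and Atpif1) had 0 calls and a median log2 fold change of -0.05. Cyc1, the cytochrome of complex III, was at 39.7 and 40.0 CPM in MUT, against 43.3 and 39.5 CPM in WT. Of 47 assembly factor genes 46 were tested, 23 were above 0 and 23 below, with a median of 0.00. The nearest to a call was Ecsit, a complex I assembly factor, at 39.8 and 38.6 CPM in MUT, against 50.8 and 47.8 CPM in WT (log2 fold change of -0.33 with SE 0.0766, limma adjusted p = 0.0535), which was singled out after its values were seen.

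Of 13 regulators of mitochondrial biogenesis none was called (median 0.04). Nrf1 was at 33.0 and 30.2 CPM in MUT, against 30.2 and 28.6 CPM in WT, and Tfam, which packages and transcribes mitochondrial DNA, at 115 and 102 CPM in MUT, against 112 and 132 CPM in WT. Of 13 tricarboxylic acid cycle genes (median 0.03) and 9 carriers and related isozymes (median 0.03) none was called. Among these are further testis forms. Slc25a31, the germ cell ADP/ATP carrier, was at 45.7 and 45.2 CPM in MUT, against 39.0 and 45.5 CPM in WT, and Pdha2, the testis pyruvate dehydrogenase subunit, at 182 and 171 CPM in MUT, against 176 and 168 CPM in WT. Both had overlapping groups (log2 fold changes 0.11, SE 0.0832, and 0.03, SE 0.0651). The general form Pdha1 was at 7.42 and 7.04 CPM in MUT, against 5.64 and 5.79 CPM in WT, without overlap (log2 fold change of 0.31 with SE 0.115, limma adjusted p = 0.206). The mitochondrially encoded subunits are not analysed here.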

How the data were processed

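Polyadenylated RNA of whole testis was sequenced as stranded libraries, per the labels' protocols. The authors deposited CPM, read counts scaled to each library; edgeR 3.8.6, HTSeq 0.6.0, TopHat2 2.0.10 and build mm10 are named, with no roles, in the submitters' processing notes, and the strand setting and the treatment of multiply matching reads are not given in the sources used here. All deposited CPM values (100%) lay within 0.001 of a whole multiple of 1 read, which gave the reads per library. Symbols with at least 1 CPM in at least 2 libraries were tested on log2(CPM + 0.5) with limma 3.58.1 (variance trend, R 4.3.3), two-sided, Benjamini-Hochberg over all tested genes, called under 0.05. Values with ± or SE rest on 2 libraries per genotype, which limits precision, and fold changes of weak genes are understated. Of the 86 members, 85 matched GENCODE vM21 (GRCm38) by name and the remaining one by a RefSeq synonym; 29 share exonic bases with another gene and 22 have a near-identical pseudogene (blastn 2.17.0). Named were the tissue isoforms and partners, called members, the most abundant, highest and lowest of each complex, and the 5 smallest p. The members and lists were chosen with earlier results of these data known. Alternatives covered pseudocount, filter, scaling, variance model, GC content and length, replicate block, libraries left out, and edgeR 4.0.16 and DESeq2 1.42.0 on recovered reads. The ETS and CCAAT motifs were added after the data were seen. The pipeline was tested on simulated data.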

Additional observations from a re-analysis of the deposited data

How the results depend on the processing

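Against 74 higher and 41 lower genes over all tested genes, with 0 and 1 members, the counts were 7 and 4 (0 and 0 members) without a filter on low values, 35 and 18 (0 and 0) after quantile normalization, 5 and 2 (0 and 0) without the variance trend, 42 and 31 (0 and 1) after removal of GC content and length trends, 113 and 37 (0 and 1) when scaled without the 100 most abundant genes, and 86 and 71 (0 and 2) with DESeq2; the cause was not tested. edgeR on recovered reads called 75 and 41 genes, with 0 and 1 members. Leaving out 1 library gave 67 to 133 higher and 42 to 177 lower genes, 0 to 2 higher and 0 to 3 lower members, and a median log2 fold change of the members from -0.0481 to 0.0243; the lone library left in a genotype is assumed to vary like the others. The lowest and highest differences in log2 isoform ratio over all alternatives were -0.37 and -0.29 for Cox6b2/Cox6b1, -0.43 and -0.27 for Cox7b2/Cox7b, -0.54 and -0.23 for Cox8c/Cox8a and -0.07 and -0.04 for Cyct/Cycs. Of 29 named tested members, 11 changed sign in at least 1 alternative, each while not called. The replicate numbers are not stated to pair libraries, and the deviations of MUT 1 and WT 1 correlated at -0.13. With the replicate block, 57 and 31 genes and 0 and 0 members were called, and Cox7b2 had a limma adjusted p of 0.0717. With the crossed pairing, chosen after the data were seen, 131 and 104 genes and 1 and 2 members were called. Members under about 2 CPM (Cox6a2, Cox7a1, Cox4i2) rest on 6 to 79 reads a library, so only large differences could show there.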
